A study of Homo sapiens with 3 samples.

Results

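Histone H3 lysine 4 methyltransferase complexes are described here through 10 genes, the 6 catalytic enzymes KMT2A, KMT2B, KMT2C, KMT2D, SETD1A and SETD1B and the 4 core subunits WDR5, ASH2L, RBBP5 and DPY30. They were chosen by name, and all 10 were found among the 26485 genes of the deposited table. The cells were HEC1B, an established human endometrial cancer cell line. The PRMT6 knockdown group held 2 libraries made at 48 h, each with its own siRNA, named siPRMT6-1 and siPRMT6-2. The siNC control group held 1 library, also at 48 h, from cells whose genotype is labelled WT. No siRNA was repeated, and nothing in the labels states separate cultures for the 3 libraries. Every p-value therefore rests on the spread between these libraries, pooled in part across genes, and not on any repeat of a siRNA. The series title names interferon signalling, apoptosis and histone modification after loss of PRMT6, and the comparison made here is of the transcripts of the H3K4 methylation machinery in the knockdown and control libraries.

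Methylation of lysine 4 on histone H3 marks promoters and enhancers. KMT2A and KMT2B (the MLL enzymes), KMT2C and KMT2D (which act mainly at enhancers) and SETD1A and SETD1B (which lay down most of the trimethyl mark at promoters) each carry a SET domain that needs the shared core of WDR5, ASH2L, RBBP5 and DPY30 for full activity. PRMT6 places asymmetric dimethylation on arginine 2 of histone H3. That mark hinders binding of the histone tail by WDR5 and is known to antagonise trimethylation of lysine 4.

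The libraries were shallow, with 381628 counts in siPRMT6-1, 362080 in siPRMT6-2 and 410916 in siNC, and 1 count equals 2.59 to 3.03 CPM, the unit used here for counts scaled to a common library size. PRMT6 itself had 4 counts in siPRMT6-1, 7 in siPRMT6-2 and 25 in siNC. After scaling, siPRMT6-1 held 0.167 times the siNC level (95% exact binomial interval 0.0421 to 0.482). The siPRMT6-2 library held 0.327 times (0.120 to 0.778), so the target was lower in both libraries labelled as knockdown. The siPRMT6-2 library stood apart from siPRMT6-1 and siNC by its interferon-stimulated genes, whose summed counts over a list of 30 were 300 in siPRMT6-1, 2763 in siPRMT6-2 and 214 in siNC. The strand behind each count could not be settled. The check covered 142 antisense-named genes with an overlap of 100 or more exon bases. Of these, 120 had more counts than the partner in siPRMT6-1, 120 in siPRMT6-2 and 118 in siNC. The antisense-named genes summed to 39203 counts in siPRMT6-1, 40815 in siPRMT6-2 and 46997 in siNC, and their partners to 7414, 6463 and 7732. All values here, PRMT6 included, are the counts as deposited. With the strand unknown, neither a count nor a 0 can be read as the level of the named gene's own transcript. The epithelial markers KRT8 and KRT18 had 681 and 85 counts in siPRMT6-1, 770 and 95 in siPRMT6-2 and 1329 and 129 in siNC, while KRT19 and CDH1 were at 0 in all 3 libraries. PAX8 had 117 counts in siPRMT6-1, 227 in siPRMT6-2 and 158 in siNC, so it was highest in siPRMT6-2 where both keratins were highest in siNC. KRT8 and KRT18 share exon bases with each other on opposite strands, and PAX8 does so with PAX8-AS1. Whether their counts are the marker's own reads or the partner's cannot be told apart. The other listed epithelial markers have no such partner, and of these EPCAM had 5, 4 and 5 counts in siPRMT6-1, siPRMT6-2 and siNC. The 7 epithelial markers together had 888 counts in siPRMT6-1, 1100 in siPRMT6-2 and 1625 in siNC. Other cell types were checked by their own markers. Of 6 leukocyte markers, 4 including PTPRC were at 0 in every library and the sum was 19 in siPRMT6-1, 57 in siPRMT6-2 and 17 in siNC, nearly all from CD68. The 4 endothelial markers summed to 18, 6 and 19, and the 6 fibroblast markers to 360, 372 and 531, with 4 of those 6 at 0. Nearly all the fibroblast marker counts came from COL1A1, with 354 in siPRMT6-1, 370 in siPRMT6-2 and 515 in siNC.

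With siPRMT6-2, 9 of the 10 members lay above siNC, DPY30 being at 0 throughout, and the 10 together held 1.45 times the siNC level. With siPRMT6-1 the members scattered around siNC and their sum was 0.971 times siNC. The members summed to 237 counts in siPRMT6-1, 315 in siPRMT6-2 and 254 in siNC, with exact Poisson intervals of 208 to 269, 281 to 352 and 224 to 287 in that order. The interval of the depth-scaled ratio to siNC was 0.810 to 1.16 for siPRMT6-1, which includes 1, and 1.22 to 1.72 for siPRMT6-2, which does not. The siPRMT6-2 sum was also 1.49 times the siPRMT6-1 sum (1.26 to 1.77). These intervals cover counting error only and compare single libraries, not conditions. Both ratios to siNC rest on the same control library. In bulk RNA, a smaller share of cells with a transcript and less of it per cell cannot be told apart.

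**Figure D1:**
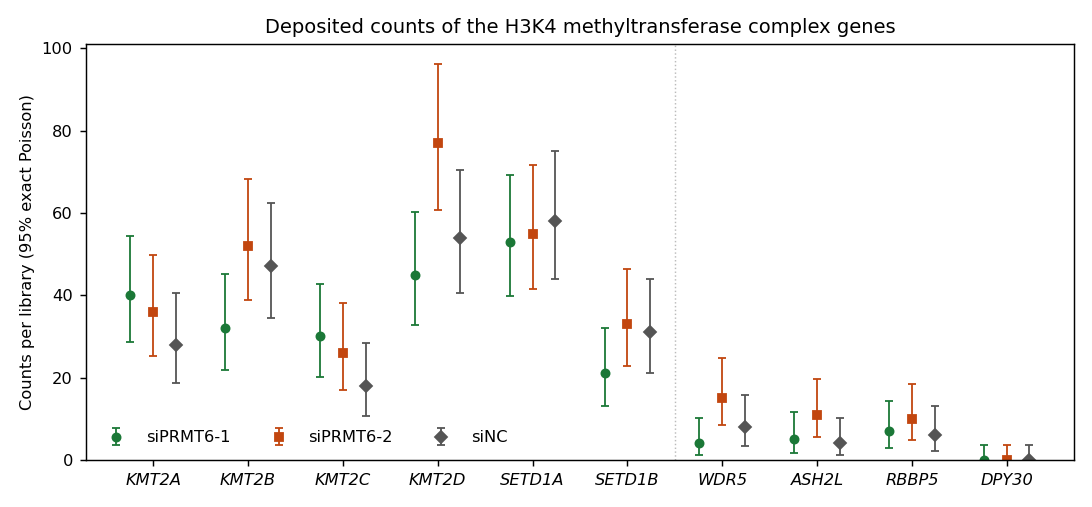
Counts of each member in the siPRMT6-1, siPRMT6-2 and siNC libraries, with 95% exact Poisson intervals; the dotted line separates the 6 enzymes from the 4 core subunits. KMT2D had the most counts over the 3 libraries, 45, 77 and 54 in that order, and DPY30 had 0 in each.

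No member passed the test of PRMT6 knockdown against siNC. Over 6803 genes, edgeR's quasi-likelihood test with Benjamini-Hochberg adjustment called 0 (0%) at an adjusted p under 0.05. An unadjusted p under 0.05 was reached by 186 genes, and by 0 of the members. PRMT6, the target of both siRNAs, did not pass either, at a log2 fold change of −2.01 (SE 0.68) and an unadjusted edgeR p of 0.0108. The lowest edgeR adjusted p over all genes was 0.9999. The lack of calls therefore does not show that the members were unchanged. DESeq2 also called 0 genes, with 12 at an unadjusted p under 0.05, whereas edgeR's legacy form of the quasi-likelihood fit called 32, with 0 members among them. Among the 9 members that reached this test the log2 fold changes ran from −0.04 for SETD1B (SE 0.54) to 1.13 for ASH2L (SE 0.99), each with an adjusted p of 1.00. The test has 1 residual degree of freedom per gene, from the spread between the siRNAs. To this it adds a prior of 12.8 degrees of freedom drawn from all tested genes. The lone siNC library is assumed to vary like the knockdown libraries. WDR5, ASH2L and RBBP5 reached 10 counts only in siPRMT6-2, so their place among the tested genes depended on the library in which they were highest.

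The enzymes were the better counted members. KMT2A, the founding MLL enzyme and a target of leukaemic translocations, had 40 counts in siPRMT6-1, 36 in siPRMT6-2 and 28 in siNC. Both knockdown libraries lay above siNC, at 1.49 times (0.895 to 2.50) with siPRMT6-1 and 1.503 times (0.892 to 2.56) with siPRMT6-2, and both intervals include 1. KMT2C, an enhancer enzyme often mutated in cancer, had 30 counts in siPRMT6-1, 26 in siPRMT6-2 and 18 in siNC. Its ratios were 1.73 (0.936 to 3.30) with siPRMT6-1 and 1.69 (0.891 to 3.27) with siPRMT6-2, again on the same side of siNC with both siRNAs and again within counting error. In the joint test KMT2C had a log2 fold change of 0.77 (SE 0.55) and KMT2A 0.58 (SE 0.50), and neither passed.

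KMT2D, the paralogue of KMT2C, had 45 counts in siPRMT6-1, 77 in siPRMT6-2 and 54 in siNC. It was the only member whose interval against siNC left out 1, at 1.67 times siNC with siPRMT6-2 (1.16 to 2.41), set beside 0.867 times with siPRMT6-1 (0.571 to 1.31). KMT2B, the paralogue of KMT2A, had 32 counts in siPRMT6-1, 52 in siPRMT6-2 and 47 in siNC, so the siPRMT6-1 library was lowest and the siPRMT6-2 library highest. Its ratios were 0.709 (0.438 to 1.13) and 1.29 (0.855 to 1.96) with the siRNAs in the same order. SETD1B had 21, 33 and 31 counts in siPRMT6-1, siPRMT6-2 and siNC, with ratios of 0.705 (0.385 to 1.27) and 1.24 (0.739 to 2.10). SETD1A varied least in the count, with 53 in siPRMT6-1, 55 in siPRMT6-2 and 58 in siNC. Its ratios were 0.951 (0.643 to 1.40) and 1.11 (0.752 to 1.63), and both intervals include 1. The 6 enzymes together had 221 counts in siPRMT6-1, 279 in siPRMT6-2 and 236 in siNC, which scales to 0.975 (0.807 to 1.18) of the siNC level for siPRMT6-1 and 1.38 (1.16 to 1.65) for siPRMT6-2. Each of the 6 enzymes lay above siNC in siPRMT6-2, by 1.11 to 1.69 times.

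The core subunits had few counts. WDR5, the subunit that holds the enzymes' WDR5-interaction motif and reads the H3 tail, had 4 counts in siPRMT6-1, 15 in siPRMT6-2 and 8 in siNC. It was lower than siNC with siPRMT6-1, at 0.520 times (0.115 to 1.94), and higher with siPRMT6-2, at 2.19 times (0.872 to 5.97), and neither interval leaves out 1. ASH2L, which with RBBP5 stimulates the SET domain, had 5 counts in siPRMT6-1, 11 in siPRMT6-2 and 4 in siNC, a ratio of 1.30 (0.280 to 6.56) with siPRMT6-1 and 3.21 (0.953 to 13.8) with siPRMT6-2. RBBP5 had 7, 10 and 6 counts in siPRMT6-1, siPRMT6-2 and siNC, with ratios of 1.21 (0.349 to 4.37) and 1.95 (0.642 to 6.52). For these 3 genes siPRMT6-2 was the highest library each time. DPY30, which docks on ASH2L, had 0 counts in all 3 libraries. With its short exonic length of 800 bases, a count of 0 allows up to 3 counts. In a single library that is 10.1 CPM per kilobase in siPRMT6-1, 11.4 in siPRMT6-2 and 9.72 in siNC. These limits exceed what WDR5, ASH2L and RBBP5 showed in siPRMT6-1 and siNC. A DPY30 level like theirs was therefore not detectable in either library taken alone, and the 3 libraries were not pooled for this limit. In siPRMT6-2 the limit lay above ASH2L and RBBP5 but below WDR5, at 14.3 CPM per kilobase. The 4 core subunits together had 16 counts in siPRMT6-1, 36 in siPRMT6-2 and 18 in siNC, or 0.925 (0.441 to 1.92) of the siNC level in siPRMT6-1 and 2.34 (1.29 to 4.37) in siPRMT6-2. The core ratio with siPRMT6-2 was 1.69 times the enzyme ratio, with an interval of 0.907 to 3.25, so a difference between core and enzymes was not detectable.

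**Figure D2:**
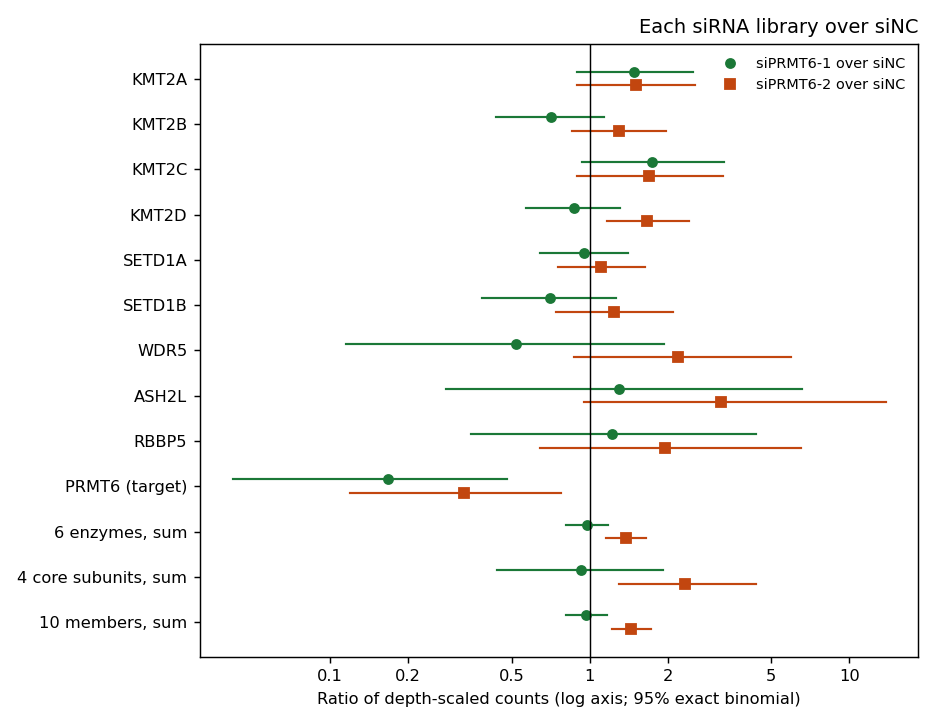
Ratio of depth-scaled counts to siNC for each member with counts, for the target PRMT6 and for the summed enzymes, core subunits and members, on a log axis; lines are 95% exact binomial intervals. With siPRMT6-2 all 9 members sit right of 1 and the sum is at 1.45, while with siPRMT6-1 the sum is at 0.971.

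Few members had an interval that left out 1, which is read here against the share of all tested genes that did. The interval left out 1 on the higher side for 0 of 10 members with siPRMT6-1, where 5.89% of the tested genes did so, and on the lower side for 0 of 10, where 7.14% did. With siPRMT6-2 it lay above 1 for 1 of 10 members, KMT2D, against 9.73% of tested genes, and below 1 for 0 of 10, against 8.82%. These shares are at or near the background. The median log2 ratio to siNC over the 9 members with counts was −0.07 with siPRMT6-1 and 0.69 with siPRMT6-2, against 0.01 with either siRNA over the 6803 tested genes. With siPRMT6-1, 4 of these 9 members were above siNC and 5 below, and 50.4% of the tested genes were above. With siPRMT6-2, 9 of 9 were above siNC and 50.9% of the tested genes were. Of those 9, WDR5, ASH2L and RBBP5 reached 10 counts only in siPRMT6-2, and the 6 enzymes had 10 or more counts in every library. The part of exonic length in the members' values was not tested, and medians of the tested genes by length are given for description. The 3948 tested genes with 2000 to 6000 exonic bases, the range of WDR5, ASH2L and RBBP5, had a median log2 ratio of 0.03 with siPRMT6-2 and −0.01 with siPRMT6-1. The 1082 tested genes with 6000 to 12000 exonic bases had a median log2 ratio of 0.01 with siPRMT6-2, as did the 199 longer ones, and with siPRMT6-1 these medians were 0.05 and 0.12.

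**Figure D3:**
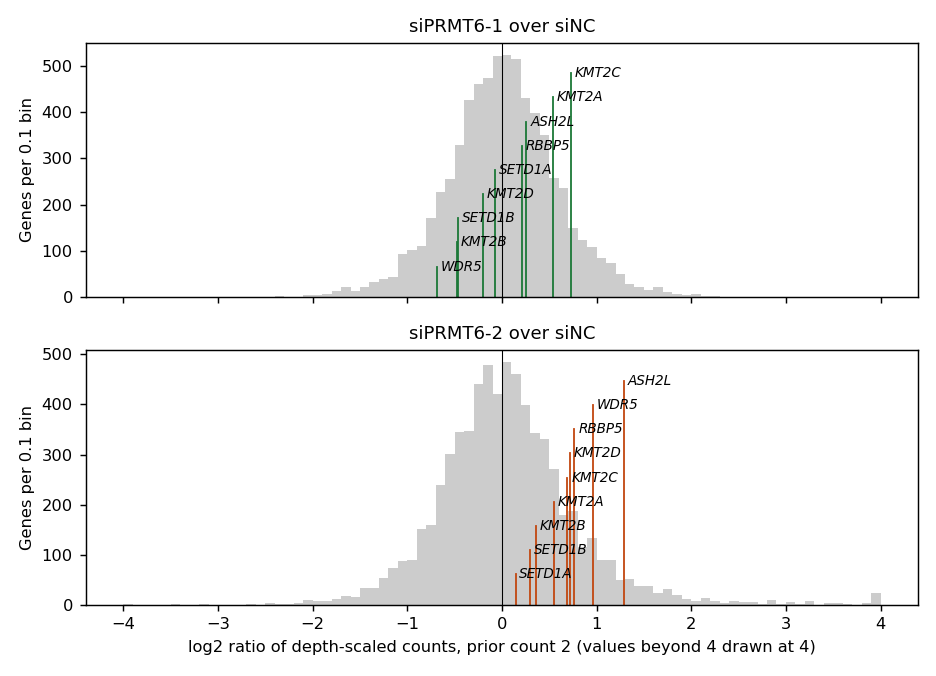
Histogram of the log2 ratio to siNC over the 6803 tested genes for each siRNA, with the 9 members that have counts drawn as lines; each ratio is computed with a prior count of 2. With siPRMT6-1 the members fall on both sides of 0, and with siPRMT6-2 all 9 fall above 0.

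Between the siRNA libraries most members were higher in siPRMT6-2. The siPRMT6-2 library was above the siPRMT6-1 library for 8 of the 9 members with counts, and KMT2C was the exception at 0.973 times (0.553 to 1.70). The interval lay above 1 for 3 of 10 members, where 11.3% of tested genes did so, and below 1 for 0 of 10, where 9.61% did. These were KMT2D at 1.92 times (1.31 to 2.84), KMT2B at 1.83 times (1.15 to 2.93) and WDR5 at 4.21 times (1.34 to 17.4). WDR5 reached 10 counts only in siPRMT6-2, so its place among the tested genes depended on the library in which it was highest. KMT2A was level between the siRNAs, at 1.01 times (0.626 to 1.63).

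Within each enzyme pair the balance of the paralogues could be compared without any scaling for depth. The ratio of KMT2A to KMT2B counts was 1.25 in siPRMT6-1, 0.692 in siPRMT6-2 and 0.596 in siNC. Divided by the siNC value this balance was 2.09 in siPRMT6-1 (exact conditional interval 1.03 to 4.28) and 1.16 in siPRMT6-2 (0.589 to 2.30). KMT2C to KMT2D stood at 0.667 in siPRMT6-1, 0.338 in siPRMT6-2 and 0.333 in siNC, a relative balance of 1.99 (0.935 to 4.33) with siPRMT6-1 and 1.01 (0.480 to 2.17) with siPRMT6-2. SETD1A to SETD1B stood at 2.52, 1.67 and 1.87 in siPRMT6-1, siPRMT6-2 and siNC, with relative balances of 1.35 (0.658 to 2.79) and 0.891 (0.461 to 1.72). Of these 6 comparisons with siNC, the interval left out 1 for KMT2A and KMT2B with siPRMT6-1, and the intervals were not adjusted for the number of comparisons.

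Levels were compared between members per kilobase of exon, from the counts as deposited and so with the strand of the reads unsettled. SETD1A was the highest member in each library, at 22.2 CPM per kilobase in siPRMT6-1 (95% interval 16.6 to 28.99), 25.8 in siPRMT6-2 (19.5 to 33.6) and 23.3 in siNC (17.7 to 30.1). The median of the tested genes was 15.9, 16.6 and 15.8 CPM per kilobase in the same libraries, so SETD1A lay above that median. KMT2B came next, at 10.2 CPM per kilobase in siPRMT6-1, 18.6 in siPRMT6-2 and 14.4 in siNC, and its gap to SETD1A exceeded counting error in siPRMT6-1 and siNC but not in siPRMT6-2. In siNC the order went on with SETD1B at 9.80, KMT2D at 7.21, WDR5 at 6.51, KMT2A at 4.37, RBBP5 at 3.53, ASH2L at 3.14 and KMT2C at 2.77 CPM per kilobase, with DPY30 at 0. In each library's own order, no pair of neighbours after SETD1A differed beyond counting error. The order changed most for WDR5, which was the lowest member with counts in siPRMT6-1, at 3.39 CPM per kilobase (0.924 to 8.68), ranked behind SETD1A and KMT2B in siPRMT6-2, at 14.3 (7.99 to 23.5), and had 6.51 in siNC (2.81 to 12.8).

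**Figure D4:**
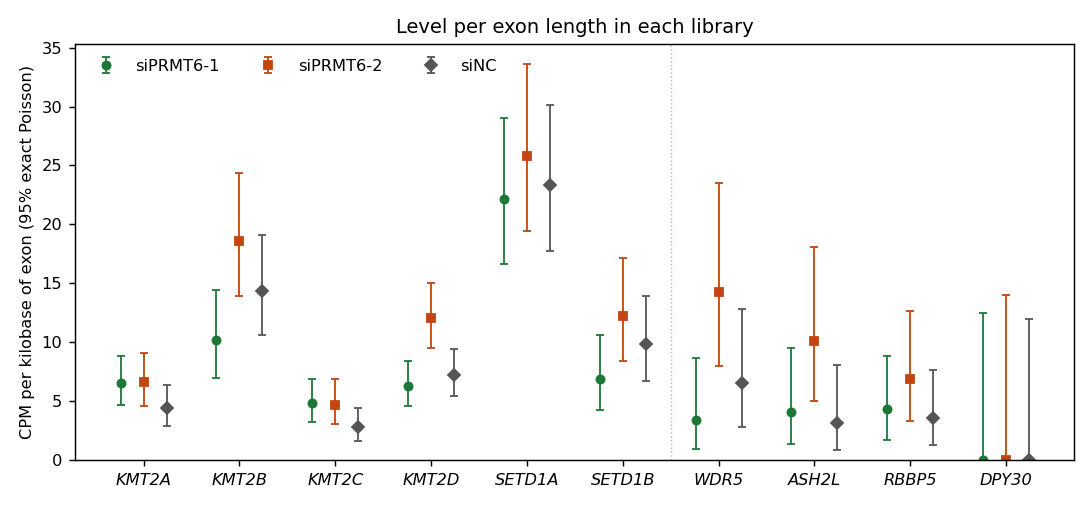
Level of each member as CPM per kilobase of exon in the siPRMT6-1, siPRMT6-2 and siNC libraries, with 95% exact Poisson intervals. SETD1A is the highest member in each library, between 22.2 and 25.8, and the intervals of neighbours after it in each library's order overlap.

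The members lie on separate chromosomes except KMT2D and SETD1B, which share chromosome 12. In hg38 coordinates KMT2A spans chromosome 11, 118436490 to 118526824, on the plus strand with 16594 exonic bases in 36 merged exons. KMT2B spans chromosome 19, 35718019 to 35738880 (plus, 8471 bases), KMT2C chromosome 7, 152134925 to 152436005 (minus, 16862 bases), and KMT2D chromosome 12, 49018975 to 49055324 (minus, 19419 bases). SETD1A spans chromosome 16, 30957294 to 30984662 (plus, 6449 bases), and SETD1B chromosome 12, 121804732 to 121832656 (plus, 8195 bases). WDR5 is at chromosome 9, 134136088 to 134159972 (plus, 3183 bases), ASH2L at chromosome 8, 38105493 to 38140080 (plus, 3301 bases), RBBP5 at chromosome 1, 205086142 to 205122022 (minus, 4411 bases), and DPY30 at chromosome 2, 32023903 to 32039775 (minus, 800 bases).

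KMT2A was the only member that shared exon bases with an opposite-strand gene of the table. The partner, LOC101929089 (chromosome 11, 118511918 to 118531094, minus strand), shares 181 bases, 1.09% of the exonic bases of KMT2A. LOC101929089 had 67 counts in siPRMT6-1, 73 in siPRMT6-2 and 96 in siNC over 1046 exonic bases, more than KMT2A in every library although it is far shorter. Its ratios to siNC were 0.726 with siPRMT6-1 (0.524 to 1.003) and 0.889 with siPRMT6-2 (0.646 to 1.22), on the other side of 1 from those of KMT2A. Whether these reads come from the antisense gene or from KMT2A cannot be told apart in these counts. In the GENCODE release 29 models, SETD1B had no opposite-strand gene across its span, and the 9 other members had at least 1. Of those overlaps, 2 were with protein-coding genes, 78 bases of IGFLR1 with KMT2B and 428 bases of STAR with ASH2L.

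CpG content was counted upstream of the members, since some of these proteins bind CpG. KMT2A and KMT2B hold a CXXC zinc finger that binds unmethylated CpG, and the SETD1 enzymes are brought to CpG islands by the CXXC protein CXXC1. RefSeq start sites on GRCh38.p14 were found for 7 members (KMT2A, KMT2B, KMT2C, KMT2D, SETD1A, WDR5 and RBBP5), and the 250 bases before the start were searched. The number of CpG was 31 for KMT2A, 40 for KMT2B, 48 for KMT2C, 23 for KMT2D, 23 for SETD1A, 2 for WDR5 and 12 for RBBP5, against a median of 11 over 35116 promoters. KMT2C had more than 99.7% of the promoters. The windows shown were picked by the values above. KMT2A and KMT2C lay above siNC with both siRNAs, with intervals that include 1. The interval of the KMT2A to KMT2B balance left out 1 with siPRMT6-1 only, unadjusted. WDR5 had the largest ratio between the siRNAs, from 4 counts in siPRMT6-1 and 15 in siPRMT6-2. Each CpG is in capitals:
KMT2A: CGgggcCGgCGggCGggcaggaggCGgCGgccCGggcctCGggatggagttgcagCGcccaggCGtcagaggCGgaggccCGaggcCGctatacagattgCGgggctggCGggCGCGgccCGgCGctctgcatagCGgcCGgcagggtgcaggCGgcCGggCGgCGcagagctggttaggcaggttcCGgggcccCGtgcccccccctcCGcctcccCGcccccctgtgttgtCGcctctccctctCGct
KMT2B: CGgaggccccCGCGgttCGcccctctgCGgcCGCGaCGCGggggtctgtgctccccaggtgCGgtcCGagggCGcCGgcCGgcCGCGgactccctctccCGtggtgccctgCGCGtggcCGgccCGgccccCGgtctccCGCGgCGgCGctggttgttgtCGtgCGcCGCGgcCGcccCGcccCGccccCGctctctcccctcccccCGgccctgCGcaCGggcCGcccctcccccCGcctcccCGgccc
KMT2C: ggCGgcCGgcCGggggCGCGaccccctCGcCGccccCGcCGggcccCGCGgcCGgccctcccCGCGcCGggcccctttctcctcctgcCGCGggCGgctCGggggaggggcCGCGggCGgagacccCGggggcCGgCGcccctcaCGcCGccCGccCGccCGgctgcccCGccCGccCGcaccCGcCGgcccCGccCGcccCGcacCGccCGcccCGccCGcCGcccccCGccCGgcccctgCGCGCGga
WDR5: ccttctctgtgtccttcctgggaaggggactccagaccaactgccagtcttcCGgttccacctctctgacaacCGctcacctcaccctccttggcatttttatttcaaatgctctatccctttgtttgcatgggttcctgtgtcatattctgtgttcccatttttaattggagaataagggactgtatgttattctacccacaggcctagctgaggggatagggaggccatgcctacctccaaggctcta
These windows are chr11:118436242-118436491 (plus), chr19:35717753-35718002 (plus), chr7:152436004-152436253 (minus) and chr9:134134949-134135198 (plus). The RefSeq start lay 5470 bases from the start of the counted gene model for KMT2D, 889 for WDR5 and 460 for SETD1A, and 2 to 44 bases from it for the other 4 members. The core of the interferon-stimulated response element, GAAANNGAA on either strand, occurred in 0 of these 7 windows and in 6.88% of all promoters. The ETS motif CCGGAAG was found in the WDR5 window only, against 8.52% of all promoters, and the NRF1 motif GCGCATGCG in 0 of 7, against 1.64%. TATAAA was found in 0 of 7 windows and in 10.7% of all promoters. No window matched more than 1 of these 4 motifs, both strands were searched for each, and a match of letters is a description only.

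Other genes of the H3K4 methylation pathway had list sums between 0.584 and 1.09 times siNC in siPRMT6-2, and each of those intervals included 1. The 12 subunits particular to individual complexes had 308 counts in siPRMT6-1, 272 in siPRMT6-2 and 299 in siNC, a scaled ratio of 1.07 (0.911 to 1.26) for siPRMT6-1 and 1.06 (0.899 to 1.26) for siPRMT6-2. Of the 9 tested, 0 passed the edgeR test over all genes. HCFC1, a host cell factor bound by the SETD1 and MLL complexes, had 162, 109 and 137 counts in siPRMT6-1, siPRMT6-2 and siNC. MEN1, which encodes menin, the partner of KMT2A and KMT2B, had 37, 27 and 29. The ratio of the 10 members to siNC was 0.906 times that of these subunits in siPRMT6-1 (0.709 to 1.16) and 1.36 times in siPRMT6-2 (1.07 to 1.73). HCFC1 alone held 408 of the subunits' counts over the 3 libraries and was lowest in siPRMT6-2. The comparison was not repeated without HCFC1, so it may rest largely on that gene. The 6 genes of H3K4 demethylation had 67, 58 and 62 counts in siPRMT6-1, siPRMT6-2 and siNC, and 0 of 4 tested passed. Among them the demethylase KDM1A had 17, 25 and 32 counts and its cofactor RCOR1 16, 10 and 9. The members' ratio relative to theirs was 1.33 with siPRMT6-2 (0.876 to 2.01), where a difference was not detectable. These ratios of ratios were not adjusted for the number of lists compared.

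The readers of H3K4 methylation and the remaining H3K4 methyltransferases also had 0 genes past the test. The 14 readers had 169 counts in siPRMT6-1, 125 in siPRMT6-2 and 141 in siNC, 1.25 times siNC (0.992 to 1.57) and 1.04 times (0.808 to 1.33) with the siRNAs in that order, and 0 of 6 tested passed. DIDO1, whose PHD finger binds trimethylated H3K4, had 68, 51 and 63 counts and BPTF, a subunit of the NURF remodeller, 28, 15 and 19. PHF8, a demethylase with an H3K4me3-binding PHD finger picked out here because of its values, had 9, 10 and 2 counts. Its ratio to siNC was 4.68 with siPRMT6-1 (0.971 to 44.5), and 5.84 with siPRMT6-2 (1.25 to 54.9). PHF8 reached 10 counts only in siPRMT6-2, so its place among the tested genes depended on the library in which it was highest. It was 1 of 6 tested readers with an interval above 1 in siPRMT6-2, where 9.73% of all tested genes had one. The members' ratio relative to the readers was 1.40 with siPRMT6-2 (1.03 to 1.89). DIDO1 held the most counts of the readers, 182 over the 3 libraries, and this ratio was not repeated without it. SETD7, SMYD3 and PRDM9 had 11, 10 and 20 counts together in siPRMT6-1, siPRMT6-2 and siNC, nearly all from SETD7 with 10, 10 and 19, while SMYD3 had 1, 0 and 1 and PRDM9 had 0 throughout. The members' ratio relative to these 3 was 2.48 with siPRMT6-2 (1.08 to 6.04).

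**Figure D5:**
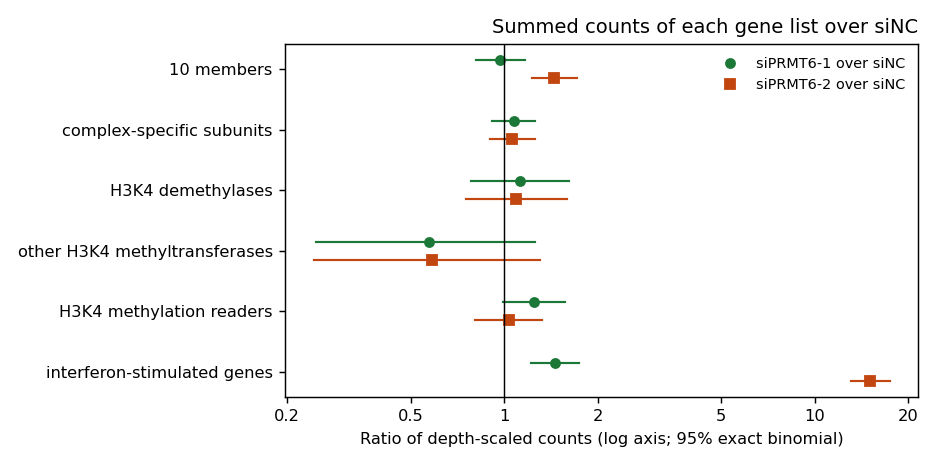
Summed counts of each gene list relative to siNC for each siRNA, on a log axis with 95% exact binomial intervals. The 10 members are at 1.45 with siPRMT6-2, the complex-specific subunits at 1.06, and the interferon-stimulated genes at 15.1.

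The higher sum of the members and the high interferon-stimulated genes were seen in the same single library. The ratio of the 30 interferon-stimulated genes to siNC was 1.46 in siPRMT6-1 (1.22 to 1.75), and 15.1 in siPRMT6-2 (13.1 to 17.4), and 0 of the 25 tested passed the edgeR test over all genes. Their part in the members' values was not tested, nor was that of the cell type markers, of which CD68 had 19 counts in siPRMT6-1, 56 in siPRMT6-2 and 17 in siNC. Without KMT2D, the member with the most counts, the sum of the other members was 1.39 times siNC with siPRMT6-2 (1.15 to 1.69).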

How the data were processed

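Total RNA of HEC1B cells was sequenced in 3 libraries. Per the labels' protocols, RNA was column-purified and 10 ng went into a stranded kit for low-input total RNA. The submitters' processing notes name STAR 2.7.8a, featureCounts 2.0.10 and hg38; per the file headers the counter was version 2.0.1. The values used are raw counts as deposited by the authors; per the file headers, pairs were counted over exons grouped by gene name with strand setting 1, reads in overlapping genes were added to each, and the input files are marked as deduplicated by UMI. With a stranded kit, a wrong strand setting would leave mainly opposite-strand reads in a gene's count. The siRNAs titled siPRMT6-1 and siPRMT6-2 appear as si2 and si3 in the descriptions.

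The whole table was tested in R 4.3.3 with edgeR 4.0.16, quasi-likelihood F-test (TMM scaling, filterByExpr with a minimum count of 10 and a minimum total of 15, two-sided, Benjamini-Hochberg adjustment), with a prior of 12.8 degrees of freedom. DESeq2 1.42.0 was an alternative. Ratios of 2 libraries used TMM library sizes and exact binomial (Clopper-Pearson) 95% intervals, single counts exact Poisson intervals (SciPy 1.17.1), and ratios of ratios exact conditional intervals; all cover counting error only. The test and the intervals were tested on simulated data. All members and PRMT6 are named; from the lists of complex-specific subunits, demethylases, other methyltransferases and readers, genes whose interval lay on the same side of 1 with both siRNAs (there were none) and the 2 with the most counts. This rule was not applied to the interferon-stimulated genes or the cell type markers. The members and lists were chosen with earlier results of these data known. SGF29 was matched to CCDC101 through RefSeq synonyms. Promoter sequences are from RefSeq (GRCh38.p14).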

Additional observations from a re-analysis of the deposited data

How the results depend on the processing

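Under DESeq2 size factors or total counts in place of TMM, without the low-count filter, with the DESeq2 Wald test and without genes overlapping an exon on the other strand, the number of genes called stayed at 0, and it was 32 with the older quasi-likelihood fit. Why that fit calls more was not tested. Without the genes overlapping an exon on the other strand, the genes whose interval lay above 1 with siPRMT6-1 numbered 261 in place of 401, those below 1 with siPRMT6-1 277 in place of 486, and those below 1 with siPRMT6-2 317 in place of 600; fewer genes enter these counts. The summed ratio of the members ran from 0.907 to 1.00 with siPRMT6-1 and from 1.39 to 1.45 with siPRMT6-2 over the other scalings, without KMT2A and without KMT2D. The fold changes of the 9 tested members and PRMT6 kept their direction and stayed short of the threshold under every setting run that gives a test. Leaving out a knockdown library gives a value with no test. The log2 fold change then turned sign for KMT2B (0.37) and SETD1B (0.31) without siPRMT6-1, and for KMT2D (−0.20), SETD1A (−0.07) and WDR5 (−0.92) without siPRMT6-2. KMT2A is not in the fit without genes overlapping an exon on the other strand. No paired analysis was possible because siNC is a single library, so the groups share fewer than 2 replicate numbers. Depth limits the core subunits most, which had 0 to 15 counts.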
